A study of Mus musculus with 9 samples.

Results

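The genes described here are a set of 6 grouped under the name of basal identity: the transcription factor Trp63, the type II keratin Krt5, the type I keratins Krt14, Krt15 and Krt17, and Sfn, which encodes 14-3-3 sigma. Sfn is held in the set by name, and the study lists it among epithelial genes without placing it in the basal layer. They were taken by name, without regard to their values, and are 6 of the 23366 gene entries in the count tables. All 6 passed the filter on low counts in each comparison.

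RNA-seq was performed on 2 spontaneously immortalized epithelial lines from adult C57BL/6 mice that were 12 weeks old. The first line, mSGc, came from the submandibular salivary gland and was sequenced as 6 libraries: passage (P) 2 and P4 in progenitor media, and P10 and P25 in progenitor and in differentiating media. Each of these conditions had 1 library, so the contrast between any pair of them had no replicate of its own. The second line, IMOK (immortalised mouse oral keratinocytes), was grown in its own medium at an early passage and was sequenced as replicates 1 to 3. Every library of a line comes from a single immortalized line, so the p-values measure the spread between these libraries. Nothing in the labels says that the IMOK replicates were separate cultures, so the source of their spread is not known. It exceeded counting error, with a chi-square per degree of freedom of 150, 180 and 21.3 for the pairs of replicates. Against IMOK, mSGc libraries of different conditions stood as samples of the line, so their spread includes the differences between those conditions. Whenever mSGc was set against IMOK, the line, the medium and the experiment all differed and cannot be told apart. The study's text speaks of a serum-free and a serum-containing medium, whereas the labels speak of progenitor and differentiating media, and the label names are used here.

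p63, the protein of Trp63, is a member of the p53 family that is required for stratified and basal epithelium, and its short form, named ΔN, is the prevailing one in basal cells. Krt5 pairs with Krt14 to build the intermediate filaments of basal keratinocytes, and in salivary glands both mark basal duct cells and myoepithelial cells. Krt15 is a type I keratin of resting basal cells, Krt17 is a type I keratin of basal duct and myoepithelial cells and of keratinocytes under stress, and Sfn is a cell cycle checkpoint gene that p53 induces and that squamous epithelium expresses at high level.

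In the mm9 build, Trp63 lies at chr16:25683851-25892174 on the plus strand, Krt5 at chr15:101537501-101543322 on the minus strand, and the single-exon gene Sfn at chr4:133156471-133158083 on the minus strand. Krt14 (chr11:100064476-100068824), Krt15 (chr11:99993073-99997263) and Krt17 (chr11:100117531-100122303) are neighbours on the minus strand of chromosome 11. The counted model of Trp63 includes the first exon of the ΔN form (chr16:25802002-25802187), so that the counts sum all forms of the gene. The forward primer that the study used for its Trp63 qRT-PCR lies inside that exon, at chr16:25802151-25802172, and is shown because it places the ΔN form within the counted exons:
Trp63 forward primer: gtacctggaaaacaatgcccag

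Krt14 and Krt17 are close copies in their coding sequence and Krt15 is more distant, which matters for reads that could be assigned to more than one of them. Over the aligned coding bases, Krt14 was 84.1% identical to Krt17, with a longest identical run of 71 bases, and 73.3% identical to Krt15. The closest relative of Krt14 was Krt16, at 86.4%, and that of Krt15 was Krt13, at 79.5%. The 60-base coding window with the fewest differences lies in exon 3 of 8 in each gene and is shown in the coding direction, with capitals at the bases that differ from Krt14. It spans chr11:100066307-100066366 in Krt14, chr11:100120532-100120591 in Krt17, with 1 difference, and chr11:99995534-99995593 in Krt15, with 3 differences:
Krt14: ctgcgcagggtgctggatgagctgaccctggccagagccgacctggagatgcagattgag
Krt17: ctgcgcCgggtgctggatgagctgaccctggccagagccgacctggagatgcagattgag
Krt15: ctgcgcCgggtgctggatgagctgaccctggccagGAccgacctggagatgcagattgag

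Of all 50-base windows within the exons, 18.7% of those of Krt14 were also found elsewhere in the genome, in Krt16 and Krt17. The share was 5.25% for Krt17, 0.814% for Krt15, 7.60% for Krt5, in Krt6a, Krt6b, Gm5414 and a place without an annotated gene, and 0% for Trp63. Sfn had the largest share, 39.5%, with copies at Gm7850, within Lrrc4c and Med24 and at places without an annotated gene. How the authors' counting treated reads that fit several places is not given in the sources used here, so the levels of Sfn and Krt14 are the most uncertain in this respect.

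Because the 3 type I keratins are neighbours whose levels moved differently in these libraries, the 120 bases before the start of each gene model are shown for comparison, in the direction of transcription. Capitals mark TATAAA on either strand. The windows are chr11:100068825-100068944 for Krt14, chr11:99997264-99997383 for Krt15 and chr11:100122304-100122423 for Krt17:
Krt14: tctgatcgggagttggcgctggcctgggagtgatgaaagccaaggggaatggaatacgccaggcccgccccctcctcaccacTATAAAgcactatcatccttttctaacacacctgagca
Krt15: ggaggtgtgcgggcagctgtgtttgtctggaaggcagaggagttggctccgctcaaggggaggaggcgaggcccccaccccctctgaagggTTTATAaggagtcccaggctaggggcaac
Krt17: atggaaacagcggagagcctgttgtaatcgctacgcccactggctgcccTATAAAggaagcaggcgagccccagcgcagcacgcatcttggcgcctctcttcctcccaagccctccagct

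These 3 are the members of the 6 whose window holds TATAAA, against 6.58% of the 23172 windows of the same length before all gene models. The motif begins 38 bases before the start in Krt14, 71 bases before it in Krt17, and lies on the opposite strand in Krt15. CCAAT, found in 22.9% of all windows, and TGANTCA, found in 2.90%, were in 0 of the 6 windows, whereas GGGCGG, found in 35.3%, was in that of Krt14. A match is a string of letters and no evidence of use.

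Between 6237884 and 18444963 reads were counted on genes per library, the fewest in P25 mSGc in differentiating media. IMOK replicate 1 was unlike replicates 2 and 3, with a chi-square per degree of freedom of 150 and 180 against them, where these gave 21.3 between themselves. Marker genes of other cell types were low in both lines for leukocytes, with a summed level of at most 0.176 TPM (counts per gene length scaled to the same total in every library), and for endothelium, with at most 0.863. The 8 myoepithelial markers summed to 8.63 to 879 TPM in the mSGc libraries, most at P2, and to 10.3 to 989 in IMOK, most in replicate 1. The 7 luminal or ductal markers summed to 2244 to 14553 TPM in the mSGc libraries, against 3090 to 5175 in IMOK. Krt7, Krt8 and Krt18 were each above all IMOK libraries in 4 of 6 mSGc libraries, and Krt7 was below them in 1. Epcam was below all IMOK libraries in 6 of 6, Krt19 in 5 and Cldn4 in 4, with Cldn4 above them in 1. The 8 acinar markers summed to 28.3 to 132 TPM against 256 to 378, and the 7 fibroblast markers to 0.589 to 18.6 against 4.59 to 6.77. At or under 3 counts in all 9 libraries were 3 of 4 leukocyte markers (Ptprc, Cd3e and Csf1r), 1 of 3 endothelial (Cdh5), 1 of 8 myoepithelial (Oxtr) and 1 of 7 fibroblast markers (Lum). In RNA from bulk cultures, fewer cells of a type and less RNA per cell cannot be told apart.

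All 6 genes were expressed in all 9 libraries (the plot of levels by library). They stood beside luminal Krt8, which was at 672 to 6326 TPM in mSGc, highest at P2, and at 659 to 1295 TPM in IMOK. Krt5, Krt14 and Krt17 were the 3 most abundant members everywhere, and each ranked among the 96 most abundant of all genes in every library. Sfn came next in 8 of 9 libraries and was passed by Krt15 in P10 mSGc in progenitor media. Trp63 was the lowest member in all 6 mSGc libraries, and Krt15 was the lowest in all 3 of IMOK. The 6 genes together summed to 17760 ± 5709 TPM in mSGc (SD, n = 6) and to 10777 ± 589 in IMOK (SD, n = 3).

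**Figure D1:**
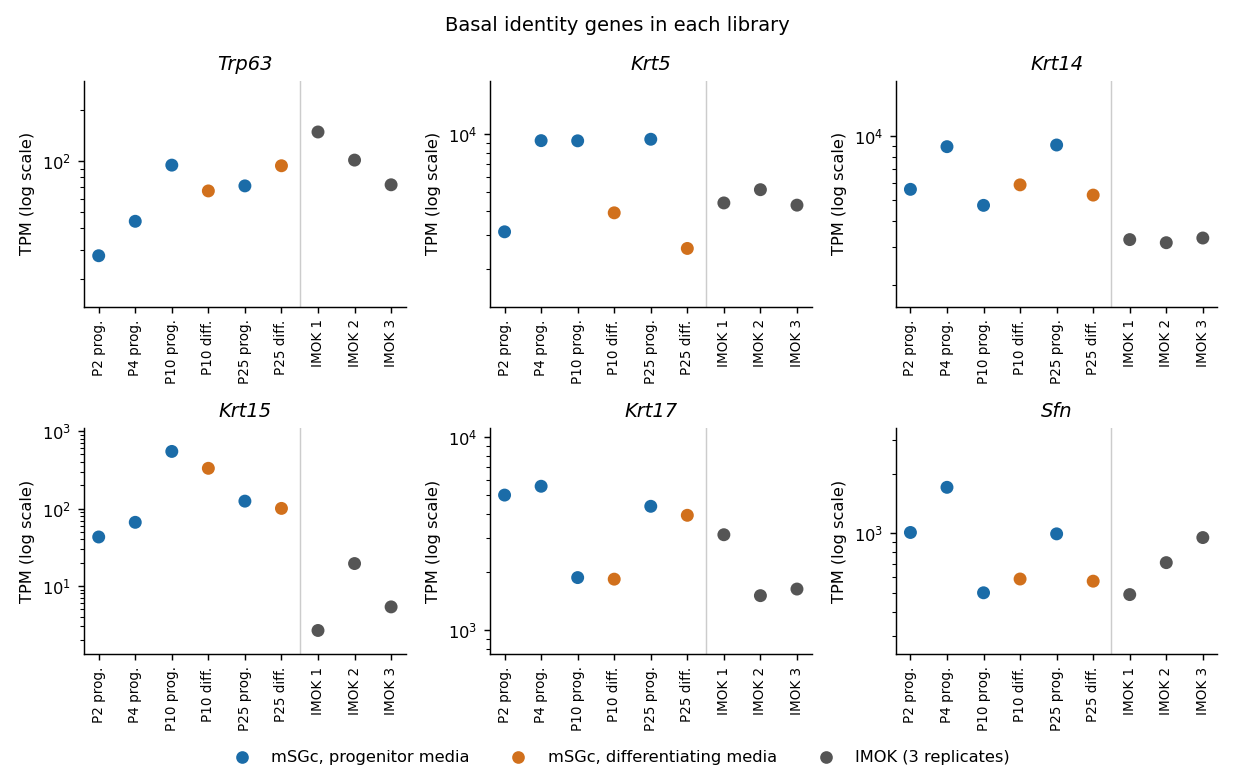
Level of each basal gene in each library, in TPM on a log axis, with mSGc libraries in blue (progenitor media) and orange (differentiating media) and the 3 IMOK replicates in grey, each point being 1 library. The mSGc points lie above all IMOK points for Krt14 and Krt15 and overlap them for the other 4 genes, and Krt15 is highest in both P10 libraries.

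The first comparison asks how the basal program of the salivary line differs from that of the oral keratinocyte line. Krt14 and Krt15 were higher in mSGc than in IMOK, and were the 2 of 6 members that passed edgeR's test at an adjusted p under 0.05. Of the 12885 genes tested, 14.9% passed, with 6.58% higher in mSGc (848 genes) and 8.30% lower (1070 genes). When library size was used without TMM factors, the split was 663 higher and 1373 lower and the median over all genes moved from 0.0023 to -0.10, with the same 2 members called. Both genes also stand in a list that the study drew up partly from these libraries, so their calls are not independent evidence of that list's direction. The study's text names Krt5, Krt14, Krt17, ΔNp63 and Sfn as enriched in mSGc. Its contrast set mSGc against fibroblast and B lymphocyte lines as well as IMOK. Those other lines are not among the libraries used here, so that contrast is unlike the present one.

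Trp63 reached 27.6 TPM at P2, 44.1 at P4, 94.6 and 66.6 at P10 (progenitor and differentiating media), and 71.3 and 93.8 at P25. In IMOK it reached 149, 101 and 72.4 TPM in replicates 1 to 3. Of the 6 mSGc libraries, 4 lay below every IMOK library, with P2 and P4 the lowest, and 2 lay within the IMOK range. The fitted log2 fold change of mSGc over IMOK was -0.44 (SE 0.38, 95% interval -1.27 to 0.40, adjusted p = 0.473), which does not separate the lines and does not show that they are alike.

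Krt5 was at 3119 TPM at P2, 9234 at P4, 9214 and 3910 at P10, and 9386 and 2559 at P25. IMOK held 4399, 5150 and 4284 TPM. The mSGc libraries fell on both sides of IMOK with 0 of 6 inside its range: 3 lay above all IMOK libraries, and 3 below. The log2 fold change was 0.70 (SE 0.52, 95% interval -0.45 to 1.84, adjusted p = 0.400).

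Krt14, the usual partner of Krt5, was at 5623 TPM at P2, 8929 at P4, 4728 and 5903 at P10, and 9091 and 5284 at P25. IMOK held 3262, 3154 and 3319 TPM, an SD of 2.57% of the mean. Every mSGc library lay above every IMOK library, the lowest of them by 1.42 times over the highest of IMOK. The log2 fold change was 1.27 (SE 0.33, 95% interval 0.53 to 2.0, adjusted p = 0.0297).

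Krt15 was at 43.0 TPM at P2, 66.4 at P4, 547 and 331 at P10, and 125 and 101 at P25. IMOK held 2.66, 19.5 and 5.37 TPM, from 39, 289 and 74 counts. The groups did not overlap, although the range within each was wide, 12.7-fold in mSGc and 7.32-fold in IMOK. How often the lines do not overlap over all genes was not computed, for Krt14 as for Krt15. The log2 fold change was 4.63 (SE 1.06, 95% interval 2.27 to 6.99, adjusted p = 0.0177), larger in size than that of all but 2.24% of the genes tested.

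Krt17 was at 5007 TPM at P2, 5562 at P4, 1872 and 1837 at P10, and 4380 and 3934 at P25. IMOK held 3121, 1509 and 1633 TPM. Both P10 libraries lay inside the IMOK range, and the other 4 above it, with IMOK replicate 1 setting the top of that range. The log2 fold change was 1.12 (SE 0.45, 95% interval 0.12 to 2.12), with an unadjusted p of 0.0311 and an adjusted p of 0.123.

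Sfn was at 1010 TPM at P2, 1714 at P4, 499 and 586 at P10, and 994 and 571 at P25. IMOK held 488, 710 and 952 TPM. The lines overlapped, with 3 mSGc libraries inside the IMOK range and 3 above it. The log2 fold change was 0.55 (SE 0.45, 95% interval -0.46 to 1.55, adjusted p = 0.457).

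The call of Krt14 was lost without P4 (adjusted p = 0.05002), without IMOK replicate 1 (0.0714), replicate 2 (0.120) or replicate 3 (0.0870), and the call of Krt15 was lost without IMOK replicate 3 (0.0745), while DESeq2 called Krt17 as well (adjusted p = 0.0324). Without IMOK replicate 1, the myoepithelial markers of IMOK summed to at most 16.0 TPM, and Krt17 in IMOK fell from 2088 to 1571 TPM on average.

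**Figure D2:**
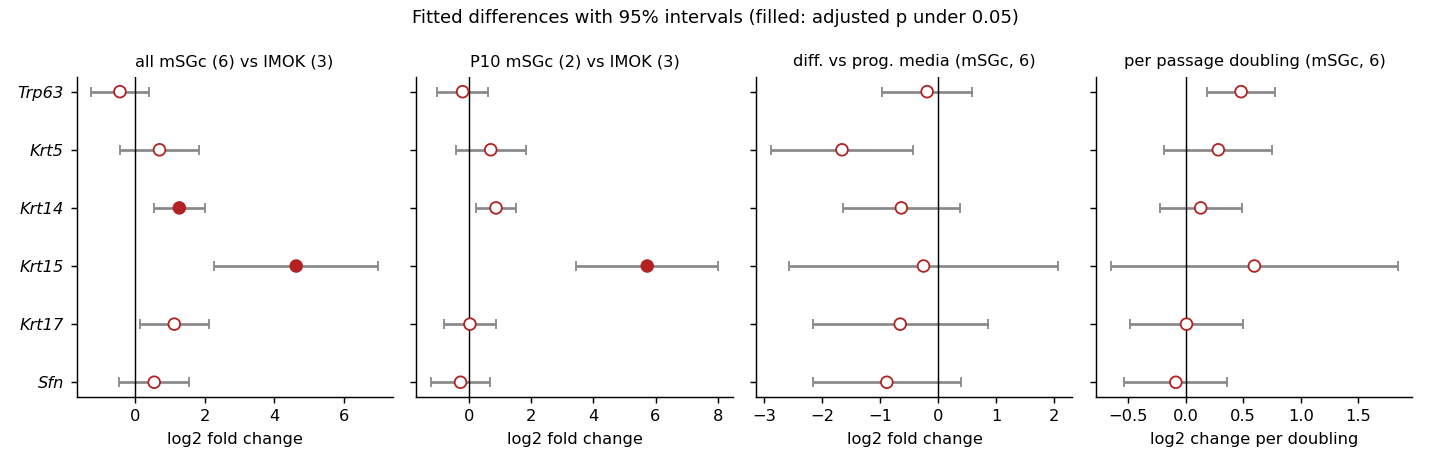
Fitted log2 fold changes of the 6 genes with 95% intervals (bars) from edgeR in the 4 comparisons, the last panel being the change per doubling of the passage number, with filled points at an adjusted p under 0.05. Krt14 (1.27) and Krt15 (4.63) are filled for all mSGc against IMOK, Krt15 (5.73) for P10 mSGc against IMOK, and no point is filled for medium or passage.

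The second comparison set the P10 libraries, 1 in each medium, against IMOK, which is the passage the study's own comparison used. The study's text gives IMOK the passage number of these P10 cells, whereas in the labels IMOK stands at an early passage and the P10 cells at a mid one. Krt15 was higher in P10 mSGc and was the 1 of 6 members called, against 4.20% of the 13018 genes tested (2.34% higher and 1.87% lower). Its log2 fold change was 5.73 (SE 0.93, 95% interval 3.45 to 8.02, adjusted p = 0.0387), and both P10 libraries lay above all 3 IMOK libraries.

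Krt14 was also above IMOK in both P10 libraries, by a log2 fold change of 0.87 (SE 0.27, 95% interval 0.21 to 1.53) that had an adjusted p of 0.121. For the other members the log2 fold changes were 0.70 for Krt5 (adjusted p = 0.388), 0.03 for Krt17 (0.963), -0.20 for Trp63 (0.746) and -0.27 for Sfn (0.715). The difference of Krt17 was thus near 0 at P10, the passage at which this gene was lowest in mSGc. Both comparisons share the IMOK libraries and the P10 libraries.

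As each library was left out, the log2 fold change of Krt15 ran from 5.21 to 6.92. Its adjusted p was 0.136 without P10 in progenitor media and 0.141 without P10 in differentiating media, fits in which edgeR called 0 genes of any kind while 2343 and 2163 had an unadjusted p under 0.05, and 0.121 without IMOK replicate 3, where 69 genes were called. DESeq2 called Krt14 in addition, with an adjusted p of 0.000698.

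The third comparison asks how the media changed the basal genes within mSGc, in a fit over the 6 mSGc libraries that was adjusted for passage. Krt5 had the lowest fitted change of the 6 genes in differentiating media. It was at 0.424 of its progenitor level at P10 (3910 against 9214 TPM) and at 0.273 at P25 (2559 against 9386 TPM), so that both pairs moved the same way. The fitted log2 difference was -1.66 (SE 0.52, 95% interval -2.89 to -0.43), with an unadjusted p of 0.0152 and an adjusted p of 0.398.

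With edgeR, 0 of 6 members passed in this comparison, against 0.0241% of the 12451 genes tested, and 1, Krt5, had an unadjusted p under 0.05. DESeq2 called Krt5 lower (adjusted p = 0.0411), and limma's voom called 0 members. Few genes of any kind passed the main test here, so that the absence of calls says little about the members.

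The levels of Krt5 were also low at P2, in progenitor media, where the luminal or ductal markers were highest. The summed luminal level was 14553 TPM at P2, 7063 at P4, 2244 and 11701 at P10, and 2245 and 7136 at P25, progenitor before differentiating media. Krt5 was therefore low in 3 of the 4 libraries with the higher luminal sums and high in the other one, P4. The part of luminal or ductal cells in the level of Krt5 was not tested.

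The fitted differences of the other 5 members were also negative, and none of them passed. Krt15 was lower in differentiating media in both pairs, at 0.605 of its progenitor level at P10 and 0.806 at P25, with a fitted log2 difference of -0.25 (SE 0.98, adjusted p = 0.977). Krt17 was at 0.981 of its progenitor level at P10 and at 0.898 at P25, with a fitted log2 difference of -0.65 (SE 0.64, adjusted p = 0.878). The fit also holds P2 and P4, which have no differentiating library, so its values need not match those of the pairs.

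Trp63, Krt14 and Sfn moved in opposite directions at the 2 passages. Trp63 was at 0.704 of its progenitor level at P10 and at 1.32 at P25, with a fitted log2 difference of -0.19 (SE 0.33, adjusted p = 0.932). Krt14 was at 1.25 of its progenitor level at P10 and 0.581 at P25, with a fitted difference of -0.64 (SE 0.43, adjusted p = 0.804). Sfn was at 1.18 and 0.575, with a fitted difference of -0.89 (SE 0.54, adjusted p = 0.776).

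**Figure D3:**
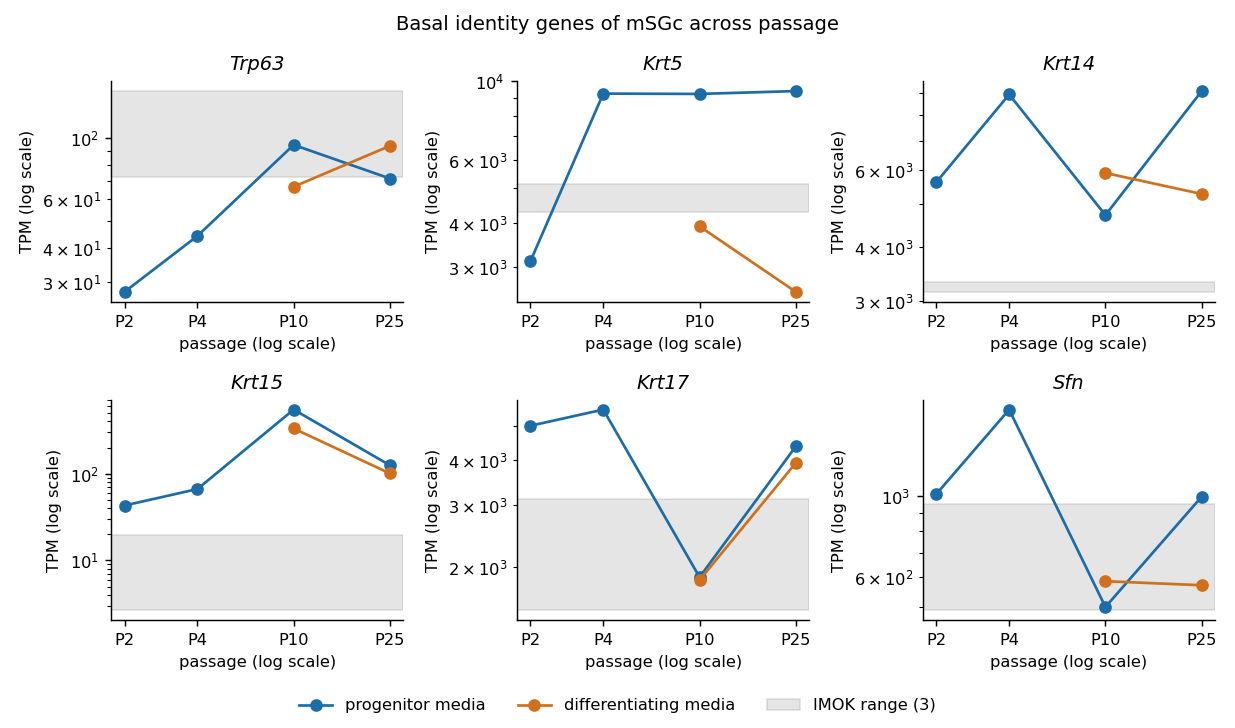
Level of each basal gene in mSGc, in TPM on a log axis, against passage on a log axis, with progenitor media in blue, differentiating media in orange and the range of the 3 IMOK replicates as a grey band, each point being 1 library. Krt5 is lower in differentiating media at both passages (3910 and 2559 against 9214 and 9386 TPM), and Krt15 peaks at P10 in both media while Krt17 is lowest there.

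The last comparison follows the line over passages, as a change per doubling of the passage number in the same fit. Trp63 had a positive slope of 0.48 on the log2 scale per doubling (SE 0.12, 95% interval 0.19 to 0.78), with an unadjusted p of 0.00621 and an adjusted p of 0.165. It was lowest at P2 and next lowest at P4, and all 4 libraries of P10 and P25 were higher than both. Between P10 and P25 alone it went down to 0.754 in progenitor media and up to 1.41 in differentiating media.

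With edgeR, 0 of 6 members passed, against 0.490% of the genes tested (0.0482% higher and 0.442% lower with passage). Of the members, 1, Trp63, had an unadjusted p under 0.05, DESeq2 called it (adjusted p = 0.00637), and limma's voom called 0. Without P2, no member had an unadjusted p under 0.05, and the slope of Trp63 ran from 0.34 to 0.73 as each library was left out.

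Krt15 and Krt17 did not follow the passage number in a straight line, and a slope describes them poorly. Krt15 rose from 43.0 and 66.4 TPM at P2 and P4 to its highest values at P10, and at P25 it stood at 0.228 of the P10 level in progenitor media and 0.303 in differentiating media. Krt17 was lowest at P10, where Krt15 was highest, and at P25 it was 2.34 times higher in progenitor media and 2.14 times in differentiating media. The fitted slopes were 0.60 for Krt15 (SE 0.53, adjusted p = 0.685) and 0.01 for Krt17 (SE 0.21, adjusted p = 0.992).

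Krt5 changed most between P2 and P4, from 3119 to 9234 TPM, and was then nearly level in progenitor media, its P25 level being 1.02 times that at P10. In differentiating media the same ratio was 0.654. Its slope was 0.28 (SE 0.20, adjusted p = 0.589). The slopes of Krt14, 0.13 (SE 0.15, adjusted p = 0.767), and of Sfn, -0.08 (SE 0.19, adjusted p = 0.902), were smaller than their errors. These 2 genes went up and down together in progenitor media, both high at P4 and P25 and low at P10.

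Since keratin filaments are built from type I and type II partners, the balance of the 2 types was described in each library. On the TPM scale, the ratio of Krt14 to Krt5 was 1.80 at P2, 0.967 at P4, 0.513 and 1.51 at P10, and 0.969 and 2.06 at P25. In IMOK it was 0.742, 0.612 and 0.775, a mean of 0.710 ± 0.0857 (SD, n = 3). Krt14 thus exceeded Krt5 in P2 and in both differentiating libraries, and Krt5 exceeded Krt14 in the other 3 mSGc libraries and in all of IMOK.

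The range within mSGc was wider than that between the IMOK replicates, and the 2 overlapped, since P10 in progenitor media had the lowest ratio of all 9 libraries. Krt14, Krt15 and Krt17 together stood at 0.776 to 3.64 times Krt5 in the mSGc libraries, against 0.909 to 1.45 times in IMOK. When Krt6a and Krt6b were added to Krt5, the sum lay between 3741 and 11548 TPM for mSGc and between 4985 and 6053 for IMOK, and it was lowest in the same 3 mSGc libraries as Krt5 alone.

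Among the 3 type I keratins, Krt14 had the largest share in every library, from 52.7% to 73.1% of their summed TPM in mSGc and from 51.1% to 67.4% in IMOK. Krt15 made up 7.66% at P10 in progenitor media and 4.11% at P10 in differentiating media. Its share was at most 1.08% in the other mSGc libraries and at most 0.416% in IMOK. Krt17 made up 26.2% and 22.8% at P10, less than in any other library, and 48.9% in IMOK replicate 1, more than in any other.

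**Figure D4:**
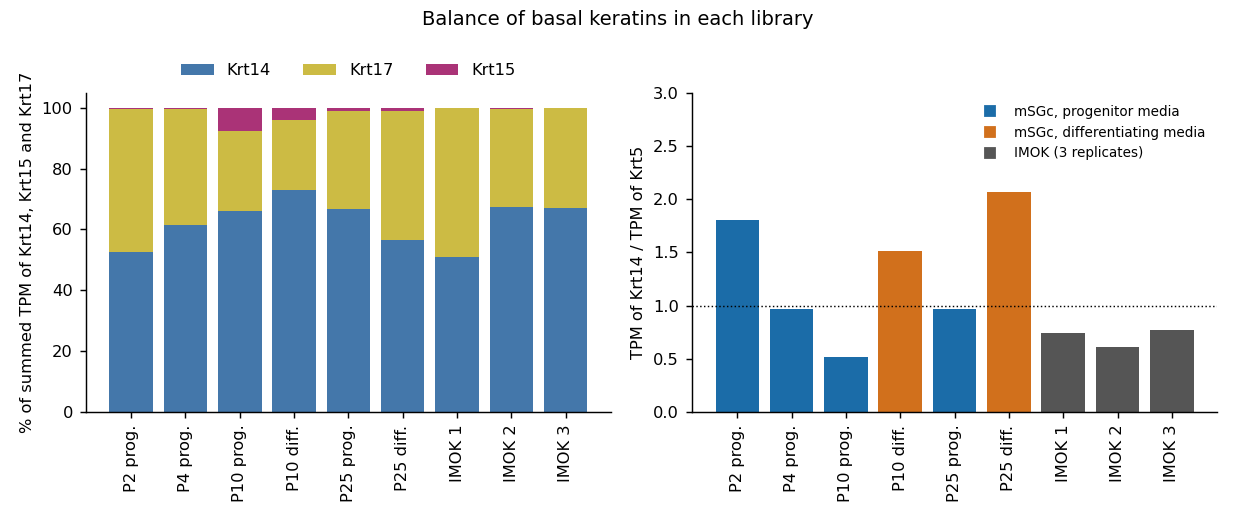
Left, share of Krt14, Krt15 and Krt17 in their summed TPM, in %, for each library. Right, ratio of the TPM of Krt14 to that of Krt5 for each library, with a dotted line at equal levels, where P2 (1.80) and both differentiating libraries (1.51 and 2.06) stand above the line and all IMOK replicates (0.612 to 0.775) below it.

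Genes of the same pathways were read from the same fit of all mSGc against IMOK, in which the median log2 fold change over all genes tested was 0.0023 and 14.9% of them were called, 6.58% higher and 8.30% lower. Of 13 known targets of p63, 3 were higher in mSGc, 5 lower, and 5 did not pass, with a median of -0.14. The higher genes were Perp, a desmosomal protein that p63 induces, at 1.11 (SE 0.27, adjusted p = 0.0240), Ppl, which encodes the desmosomal plakin periplakin, at 1.25 (SE 0.31, adjusted p = 0.0247), and Hes1, a Notch effector, at 0.71 (SE 0.21, adjusted p = 0.0429).

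The lower targets were led by Satb1, a chromatin organizer, which was at no more than 0.390 TPM in mSGc and at 4.39 to 9.70 in IMOK (adjusted p = 0.00246), too near 0 in mSGc for a fold change. Fras1, a basement membrane protein, was at 0.110 to 0.663 TPM against 1.90 to 11.6. Igfbp3, a binding protein of insulin-like growth factors, was at 19.1 to 134 TPM against 147 to 845. The lines did not overlap for any of these 3 genes, which are named because they were called. The share of all genes without overlap was not computed.

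Fgfr2, a receptor of fibroblast growth factors, was at 8.98 to 16.5 TPM in mSGc and 45.0 to 54.0 in IMOK. A smaller decrease was found for the kinase Chuk, at -0.60 (SE 0.16, adjusted p = 0.0356). The p63 targets therefore moved both ways, while Trp63 itself was not called. The list does not separate targets that p63 raises from any that it lowers, so these directions do not measure p63 activity. At P10 against IMOK, where 4.20% of all genes were called, 1 of the p63 targets was called higher, Perp, and 2 lower, Satb1 and Fgfr2.

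Of 12 genes of the p53 family and of partners and regulators of p63, 3 were higher in mSGc, 1 was lower and 8 did not pass, with a median of 0.19. Tfap2c and Tfap2a, the AP-2 factors of early keratinocytes, were at 2.44 (SE 0.54, adjusted p = 0.0158) and 0.97 (SE 0.18, adjusted p = 0.00725), and Ppp1r13l, which encodes the p53 inhibitor iASPP, at 0.67 (SE 0.18, adjusted p = 0.0346). Sox2, a progenitor factor of oral epithelium and salivary glands, was lower, at -0.83 (SE 0.19, adjusted p = 0.0187). Tfap2a was also called higher at P10.

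Of 12 genes of hemidesmosomes and the basement membrane, which anchor basal cells, 1 was higher and 11 did not pass, with a median of 0.26. The gene called was Itgb4, a hemidesmosomal integrin subunit, at 0.99 (SE 0.29, adjusted p = 0.0448), although its levels overlapped, 190 to 297 TPM in mSGc against 96.7 to 248 in IMOK. The highest IMOK value thus fell among those of mSGc. This call was lost without any 1 of the 6 mSGc libraries, without IMOK replicate 2 or 3, without TMM factors and with at least 10 counts in every library, and 1 of 12 genes is no more than the 14.9% over all genes.

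Of 11 other keratins 10 were tested, and 2 were higher, with a median of 1.94. Krt16, the close copy of Krt14, was at 26.1 to 119 TPM against 7.64 to 23.9 (log2 fold change 2.65, SE 0.58, adjusted p = 0.0151). Krt4, a keratin of differentiating mucosal epithelium, was at 88.2 and 94.8 TPM in the 2 differentiating libraries, 3.10 and 8.51 at P2 and P4, and 0.204 and 0.386 in progenitor media at P10 and P25, against 0 to 0.165 TPM in IMOK, too near 0 for a fold change. Its call was lost with voom, without P4, without either differentiating library and without any 1 of the IMOK replicates. Of 6 other 14-3-3 genes, 0 passed with edgeR and 0 had an unadjusted p under 0.05, with a median of -0.13, and Sfn at 0.55 stood above the highest of them, Ywhaq at 0.46 (adjusted p = 0.234), while Ywhah was lowest, at -0.50 (adjusted p = 0.284).

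The calls in these lists depended on which libraries of both lines were held. Fgfr2, Igfbp3 and Tfap2a were called under every alternative of this fit. The call of Hes1 was lost without any 1 of the mSGc libraries, and those of Chuk and Ppp1r13l without P4, without P10 in differentiating media or without P25 in progenitor media. Those of Perp and Ppl were lost without any 1 of the IMOK replicates. The calls of Sox2, Chuk and Ppp1r13l were lost without IMOK replicate 2 and without replicate 3, and that of Tfap2c without replicate 2. Fras1 was not called with DESeq2. Without IMOK replicate 2, and likewise without replicate 3, 0 of the p63 targets were called higher with edgeR and 4 lower, and 0 of the other keratins were called in either direction, where 9 and 8 targets and 4 and 5 keratins had an unadjusted p under 0.05. Within mSGc, none of these 5 lists had a gene called for medium or passage with edgeR, where 2, 1, 3, 5 and 0 genes in the order of the text had an unadjusted p under 0.05 for medium, and 2, 1, 3, 4 and 0 for passage.

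**Figure D5:**
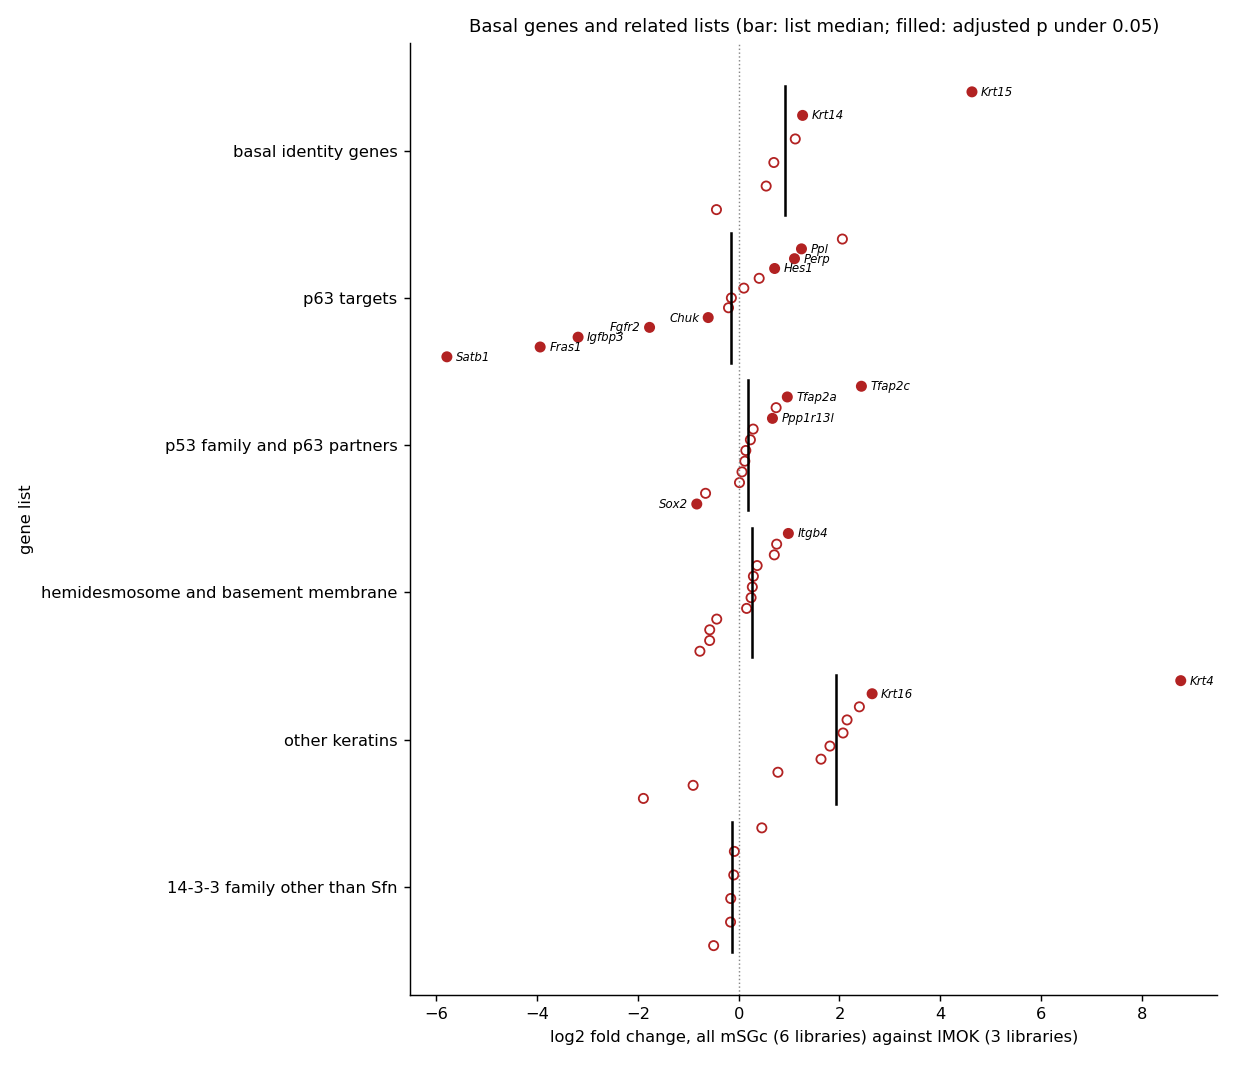
Log2 fold changes of all mSGc against IMOK from edgeR for the basal genes and 5 related lists, each point being 1 gene, filled and named at an adjusted p under 0.05, with a black bar at the median of the list. The p63 targets spread to both sides, Satb1 being the lowest, the other keratins have a median of 1.94, and the other 14-3-3 genes lie near 0.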

How the data were processed

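Reads were aligned by the authors to mm9, and their number per gene was deposited as raw counts, without normalization, in a table for each line. The submitters' processing notes name TopHat2 2.1.1, Bowtie2 2.2.6, featureCounts 1.5.1 and DESeq2 1.12.4, and the libraries were made with a TruSeq RNA kit. The annotation, the strand setting and the handling of reads that fit several places are not given in the sources used here.

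Counts were divided by the gene length of the tables and scaled to TPM, which have the same total in every library. A level of 3 counts, the most that a count of 0 allows, corresponds to 0.163 to 0.481 CPM, which covers counting error only. Tests were edgeR 4.0.16 quasi-likelihood fits in R 4.3.3 with TMM normalization, the default filter on low counts and Benjamini-Hochberg adjustment at 0.05 over all genes tested, and every adjusted p-value comes from them unless another tool is named. Standard errors are the absolute log2 fold change over the square root of F. Alternatives were DESeq2 1.42.0, limma 3.58.1 with voom, no TMM factors, fits with the filter removed or set to 10 counts in each library, leaving out each library, all 9 libraries in 1 fit, progenitor media only, P10 and P25 with passage as a factor, and an untransformed passage number. Scripts were tested on simulated data.

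Sequences were read from the mm9 genome with Python 3.11.15. Primer sequences are those of the study's primer list. The genes named are the 6 members, in each of the 5 related lists every gene called in 1 of the 4 fits or else the highest and lowest, the 3 genes most like each member, and the keratins closest in sequence. The 7 lists of markers were for luminal or ductal, myoepithelial, acinar, fibroblast, leukocyte, endothelial and suprabasal squamous cells. Some genes of these lists are not reported here. The members and lists were chosen with earlier results of these data known. Both tables list the same 23366 entries and were normalized together.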

Additional observations from a re-analysis of the deposited data

Results flagged for a closer look

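Several basal genes changed in opposite directions under the same contrast at 2 passages or in 2 media, each seen in single pairs of libraries. For the effect of differentiating media, the log2 ratio was -0.51 at P10 and 0.40 at P25 for Trp63, 0.32 and -0.78 for Krt14, and 0.23 and -0.80 for Sfn. For P25 over P10, the log2 ratio was -0.41 in progenitor and 0.49 in differentiating media for Trp63, 0.0267 and -0.61 for Krt5, 0.94 and -0.16 for Krt14, and 1.00 and -0.0366 for Sfn. Both sets of ratios come from the same 4 libraries. A term for medium by passage, added after the levels had been seen, was fitted over the 6 mSGc libraries with 2 residual degrees of freedom. With edgeR it called 0 of 13158 genes, 402 of which had an unadjusted p under 0.05, and no other tool was run. The term was 0.01 on the log2 scale per doubling for Trp63 (SE 0.43), -0.71 for Krt5 (SE 0.64), -0.15 for Krt14 (SE 0.59) and 0.20 for Sfn (SE 0.67), each with an adjusted p of 1. P2 and P4, held in progenitor media alone, also set the progenitor slope in this fit, so the term is not a test of the P10 and P25 pairs listed. The opposite directions were not shown to differ, and the intervals, such as -1.57 to 1.28 for Krt14, leave room for differences of this size.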

How the results depend on the processing

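Of 318 values for single genes under alternative settings, 281 kept their direction and their side of the threshold, 4 newly passed, 8 no longer passed and 25 changed sign, none of the last for a gene called in that comparison. As each library was left out in turn, the number of genes called ran from 738 to 1918 for all mSGc against IMOK (738 without IMOK replicate 2, 943 without replicate 3), from 0 to 3416 for P10 against IMOK (0 without either P10 library, 3416 without IMOK replicate 1, 36 without replicate 2, 69 without replicate 3), from 0 to 58 for medium (58 without P10 in progenitor media, 12 without P25 in differentiating media, 0 without any of the other 4) and from 0 to 329 for passage (0 without P2 or without P25 in progenitor media, 2 without P4, 329 without P10 in progenitor media, 32 without P10 and 31 without P25 in differentiating media). Where the count was 0, between 442 and 2343 genes had an unadjusted p under 0.05 with edgeR. The members called ran from 0 to 2, 0 to 1, 0 to 0 and 0 to 0 in the same order. DESeq2 called 2900, 2231, 272 and 700 genes, and 3, 2, 1 and 1 members. With at least 10 counts in every library, 272 genes were called for P10, 1 for medium and 3 for passage, and with no filter 36 for medium and 161 for passage. Medium gave 0 calls with voom and 123 with P10 and P25 alone, and passage gave 126 calls with the number untransformed and 31 in progenitor media alone. The ratio of Krt14 to Krt5 in IMOK had a mean of 0.538 from CPM (counts not divided by length), since Krt5 has the longer model. The cause of the other changes was not tested.

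At P10 against IMOK the log2 fold change ran, over the left-out libraries, from -0.584 to 0.0877 for Trp63, -0.17 to 1.23 for Krt5, -0.18 to 0.34 for Krt17 and -0.525 to 0.0272 for Sfn, and Krt17 was at -0.0830 without TMM factors, -0.0228 with no filter and -0.0016 with at least 10 counts. For medium it ran from -0.733 to 0.0831 for Trp63, -2.42 to 1.08 for Krt15 and -1.36 to 0.0196 for Krt17. For passage it ran from -0.0359 to 0.42 for Krt5, -0.0783 to 0.21 for Krt14, -0.19 to 1.16 for Krt15, -0.17 to 0.10 for Krt17 and -0.29 to 0.0322 for Sfn, Krt15 was at -0.0081 with the number untransformed, and Krt17 at -0.0113 without TMM factors, -0.0033 with voom and -0.0829 in progenitor media alone. A condition left with 1 library is assumed to vary like the others. Replicate numbers 2 and 3 occur in IMOK alone, so the libraries of mSGc and IMOK could not be paired. Within mSGc, the fit of P10 and P25 with 123 calls paired the media by passage. At 39 to 289 counts, Krt15 in IMOK is the least precise level.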

Other observations

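Within mSGc the 6 genes did not vary as 1 block. Over the 6 libraries, Pearson's r of log2(TPM + 1) was -0.94 between Krt15 and Krt17, 0.81 between Krt14 and Sfn, 0.81 between Krt17 and Sfn, and 0.73 between Trp63 and Krt15. It was -0.73 between Krt15 and Sfn, -0.69 between Trp63 and Sfn, -0.58 between Trp63 and Krt17, and 0.59 between Krt14 and Krt17. Krt5 and Krt14, the classical keratin pair, gave 0.54. These values describe 6 libraries that share a line and differ in depth, and carry no test.

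The genes most like each member over the same 6 libraries, among 8555 genes with a mean of at least 10 TPM, had r from 0.965 to 0.992. They were picked as the highest of many values over few libraries. For Trp63 they were Rps15a-ps4, Sord and Cpne2, for Krt5 Nme4, Rpl27a and Slc12a4, for Krt14 Ivl, Hras1 and Lrfn4, for Krt15 Use1, Ltbp4 and Slc35f6, for Krt17 Polr3d, Gtf2f1 and 1500032L24Rik, and for Sfn Polr2l, Tbcd and Lsmd1. When the IMOK libraries were added, the likeness stayed above 0.9 for Sord (0.952), Nme4 (0.955), Rpl27a (0.933), Gtf2f1 (0.974) and Polr2l (0.942). It was negative for Rps15a-ps4 (-0.437), Lrfn4 (-0.743), Ltbp4 (-0.0922) and Slc35f6 (-0.184).

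Among the marker lists of other cells, luminal or ductal Cldn4 had a slope of -1.17 on the log2 scale per doubling of the passage number in mSGc (SE 0.13, adjusted p = 0.0332), and 2 of 5 myoepithelial genes tested, Cnn1 and Myl9, were called lower, against 0.442% of all genes. Cnn1 was at 21.2 TPM at P2, 1.51 at P4 and 0 in the other 4 mSGc libraries, and Myl9 at 107 TPM at P2, 19.1 at P4 and 0.588 to 5.84 in the other 4. Cnn1 thus passed the filter on low counts only through P2 and P4, and it could only come out lower. The 2 of 5 is therefore no measure of the myoepithelial genes as a set. With edgeR, 0 genes were called for passage without P2 and without P25 in progenitor media, where 697 and 957 had an unadjusted p under 0.05.

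In all mSGc against IMOK, acinar Aqp5 was at no more than 20.9 TPM in mSGc and at 72.9 to 213 in IMOK (log2 fold change -3.45, SE 0.69, adjusted p = 0.0101). Of 6 luminal or ductal genes tested, 3 had a positive log2 fold change. In the main edgeR fit 0 of these 6 were called, while 4 had an unadjusted p under 0.05. In the edgeR fit of all 9 libraries with medium and passage terms, Krt7, Krt8 and Krt18 were called higher and Cldn4 lower. DESeq2 called Krt8 and Krt18 higher and Epcam lower. Of 6 myoepithelial genes tested, 4 had a positive log2 fold change, with a median of 0.54. Without P2, 0 of 4 tested were positive, with a median of -1.96. Without IMOK replicate 1, 6 of 7 were positive, with a median of 3.77. With medium and passage terms over all 9 libraries, 0 of 7 were positive, with a median of -1.98. The 1 called in the main fit was Mylk, lower in mSGc, against 14.9% of all genes. The call of Mylk was lost without IMOK replicate 1, with voom and in progenitor media alone. Suprabasal squamous markers summed to 282 and 200 TPM in the P10 and P25 libraries in differentiating media and to at most 46.7 TPM in the other 7 libraries. Most of these 2 sums came from Krt13 (179 and 94.3 TPM) and Krt4 (88.2 and 94.8 TPM). Ivl was at 7.56 and 6.79 TPM there, and at 6.87, 24.3, 3.96 and 19.0 TPM at P2, P4, P10 and P25 in progenitor media. Krt1 and Lor reached at most 0.260 and 0.888 TPM in mSGc. Krt10, a keratin of that list, was at 2.59 to 6.04 TPM in mSGc and 7.75 to 8.35 in IMOK, lower in all 6 mSGc libraries. Its log2 fold change of -0.90 was not called in the main edgeR fit. It was called with DESeq2, with voom, and with edgeR on genes with at least 10 counts in every library.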
